A study of Rattus norvegicus with 6 samples.

Results

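The miR-200 family was examined in small RNA libraries from INS-1 cells, a rat insulinoma line that makes and secretes insulin. The family was taken by gene symbol as 5 genes, Mir200a, Mir200b, Mir200c, Mir141 and Mir429. Of these, 3 were found among the 32883 genes of the table: Mir200b (ENSRNOG00000035508), Mir429 (ENSRNOG00000035595) and Mir141 (ENSRNOG00000035577). Mir200a and Mir200c were not analysed here, so every cluster total given for them is incomplete.

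The study engineered clonal INS-1 lines to model β-cells in Prader-Willi syndrome (PWS), an imprinting disorder in which the genes normally active on the father's copy of a chromosome region are silent or missing. There was 1 library from each of 6 lines grown in 7.5 mM glucose. The 3 control lines (5-9, 2 and 16) lacked the PWS domain on the silent maternal allele, and the 3 PWS lines (3, 19-1 and 19-4) lacked it on both alleles. All lines carried a human INS-neoR transgene and a mouse Ins2-C-mCherry reporter, and the INS-neoR transgene was silenced in line 16. Each line was a clone, the other 5 lines descended from line 5-9, and lines 19-1 and 19-4 were subclones of line 19. Replicates were thus related clones, and p-values measure the spread between them.

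The miR-200 family is made from a pair of genomic clusters, one holding Mir200b, Mir200a and Mir429 and the other Mir200c and Mir141. Its members are known as markers and keepers of the epithelial state, which they maintain largely by repressing the transcription factors ZEB1 and ZEB2. In β-cells the family is known for promoting apoptosis under stress, with the chaperone gene Dnajc3 and the caspase inhibitor gene Xiap among its described targets. A miRNA recognizes its targets mainly through the seed, bases 2 to 8 of the mature strand.

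The sequences below are shown because the family carries a pair of heptamers that differ by a single base and cross the clusters. They were taken from RefSeq (assembly GRCr8), in which all 5 genes were matched by symbol. In the mature strands the capitals mark the seed.
rno-miR-141-3p: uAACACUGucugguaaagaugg
rno-miR-200c-3p: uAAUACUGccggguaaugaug

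In the hairpins, which are the precursors of both mature strands, the capitals mark the heptamer that matches one of these seeds.
Mir200b: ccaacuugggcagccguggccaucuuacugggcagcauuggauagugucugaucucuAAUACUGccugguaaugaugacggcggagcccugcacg
Mir429: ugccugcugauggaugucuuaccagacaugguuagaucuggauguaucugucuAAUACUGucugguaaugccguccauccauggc
Mir200a: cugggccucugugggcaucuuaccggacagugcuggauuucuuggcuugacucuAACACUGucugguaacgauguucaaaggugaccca

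Over 21 bases counted from the 5′ end, rno-miR-141-3p and rno-miR-200c-3p differed at 4 positions. Only C4U lay in the seed, and U9C, U11G and A17U lay outside it. The heptamer AAUACUG was found in 4 of 419 rat hairpins on the strand given (0.955%), those of Mir200b, Mir200c, Mir429 and Mir145. AACACUG was likewise found in 4 of 419 (0.955%), those of Mir141, Mir200a, Mir3575 and Mir3587. Among the 3 genes with values, therefore, Mir200b and Mir429 shared a cluster and had the heptamer AAUACUG in their hairpins, while Mir141 alone stood for the other cluster and for AACACUG. A heptamer in a hairpin is a match of letters, and for Mir200b and Mir429 it was not set against a mature strand. Reads were counted per gene, so the 5′ and 3′ strands of a hairpin were not separated.

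The libraries held from 7373691 to 16480475 reads assigned to genes, of which 88.6 to 90.2% fell on miRNA genes. Genes were taken as miRNA genes by symbol or by their RefSeq class, and all miRNA counts, shares and ranks here use this set. It holds some genes with other symbols, among them Scarna15, Snora58, Scarna3 and Snora19. Of the 462 genes in the set, 359 had at least 1 read. Values are normalized reads, gene counts divided by the authors' size factor for each library. The β-cell markers (Ins1, Ins2, Iapp, Mir375, Mir7a1 and Mir7a2) all had reads, although Ins2 was at 0 in line 19-4, and their sum was between 1901548 and 3329417 normalized reads in the control group and between 2048276 and 2842609 in the PWS group. Nearly all of that sum was Mir375, Mir7a1 and Mir7a2. The log2 fold changes (PWS minus control) of the 6 markers were all below 0, from −2.03 for Ins2 (95% interval −3.61 to −0.45, limma adjusted p = 0.727) to −0.07 for Mir375, and 0 were called. Ins2 fragments averaged 21.1 ± 9.91 normalized reads in control and 7.45 ± 8.08 in PWS lines (SD, n = 3 per group), and their part in the family's values was not tested. Of the 5 acinar markers 3 were at 0 in every library, and the list summed to 4.92 to 15.4 in control and 2.10 to 6.59 in PWS lines. Mesenchymal markers (4 of 5 measured, Mir145 at 0) summed to 49.7 to 91.0 in control and 68.3 to 84.4 in PWS lines. Of these, Mir199a2 had a mean of 37.2, and 0 when reads shared between genes were left out. Blood markers (3 of 3 measured) summed to 47.3 to 77.1 in control and 46.2 to 77.8 in PWS lines, mainly Mir142 with a mean of 60.1. The endothelial marker Mir126a had a mean of 24.7.

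Mir141 was an abundant miRNA of these cells, whereas Mir200b was found at moderate and Mir429 at low levels. By mean normalized reads, Mir141 ranked 26 among the genes taken as miRNA genes, Mir200b 160 and Mir429 234. Scarna15, Snora58 and Scarna3, at ranks 50, 111 and 137, count in the places of Mir200b and Mir429. Mir141 supplied 0.582 to 0.968% of all miRNA reads in a library. It made up 99.6 to 99.8% of the normalized reads of the 3 family genes, so that the family total was almost wholly Mir141.

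**Figure D1:**
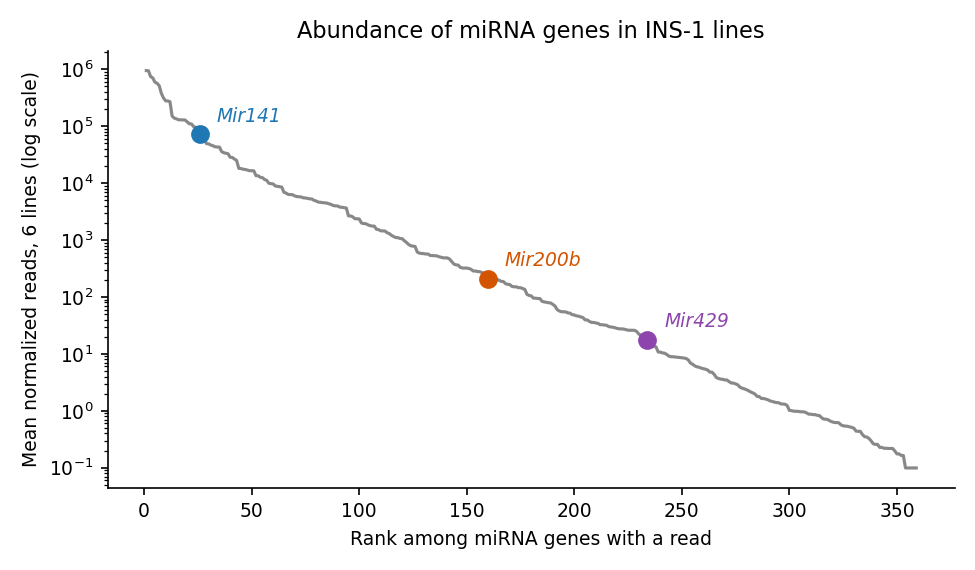
Mean normalized reads over the 6 lines (log scale) of each gene with a read that was taken as a miRNA gene by symbol or RefSeq class, against its rank by that mean. The line joins the genes and the points mark the family. Mir141 lies at rank 26, Mir200b at 160 and Mir429 at 234.

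Mir141 had 87613, 51925 and 91999 normalized reads in control lines 5-9, 2 and 16. It had 70814, 64630 and 68055 in PWS lines 3, 19-1 and 19-4. Every PWS line thus lay between the lowest control line, line 2, and the other two control lines, and the groups overlapped. The means were 77179 ± 21980 in control and 67833 ± 3098 in PWS lines (SD, n = 3 per group). Its rank among miRNA genes was between 24 and 28 in every line.

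Mir200b, the main member of the other cluster in these data, had 309, 171 and 222 normalized reads in control lines 5-9, 2 and 16. It had 177, 186 and 198 in PWS lines 3, 19-1 and 19-4. As for Mir141, line 2 was the lowest of all and lines 5-9 and 16 the highest, with the PWS lines between them. The means were 234 ± 69.8 in control and 187 ± 10.4 in PWS lines (SD, n = 3 per group). These values rested on 131 to 314 reads per library.

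Mir429 differed from both in the order of the lines. It had 21.7, 18.3 and 6.94 normalized reads in control lines 5-9, 2 and 16. PWS lines 3, 19-1 and 19-4 had 13.7, 24.2 and 21.1. Line 16, the highest line for Mir141, was here the lowest, and the groups again overlapped. The means were 15.6 ± 7.71 in control and 19.6 ± 5.40 in PWS lines (SD, n = 3 per group), from only 9 to 23 reads per library.

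**Figure D2:**
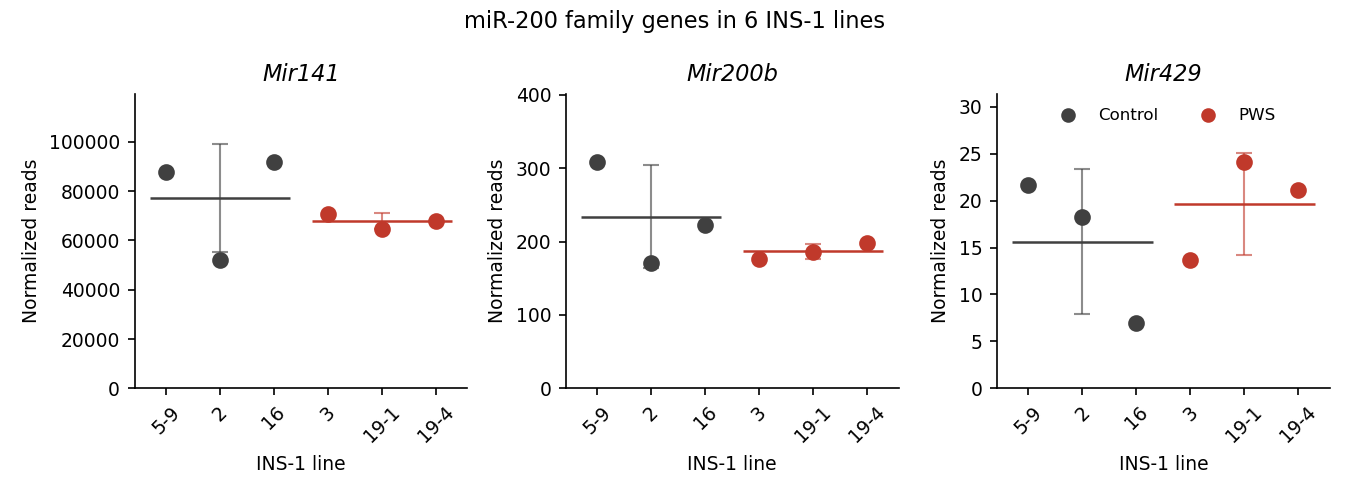
Normalized reads (linear axes starting at 0) of Mir141, Mir200b and Mir429 in each of the 6 lines; points are single libraries, horizontal lines group means and error bars 1 SD (n = 3). For Mir141 and Mir200b the PWS lines sit between control line 2 and control lines 5-9 and 16, and for Mir429 the lowest point, 6.94, is control line 16.

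The highest line exceeded the lowest by 1.77 times for Mir141, 1.81 times for Mir200b and 3.48 times for Mir429. The SD of log2(normalized reads + 1) over the 6 lines was 0.30 for Mir141. Among the 35 miRNA genes with means from 10000 to under 100000, the median SD was 0.26, with 10th and 90th percentiles of 0.14 and 0.44, so Mir141 varied much as other genes of its level. The SD was 0.31 for Mir200b, against a median of 0.39 among 60 genes with means from 100 to under 1000. For Mir429 it was 0.62, against a median of 0.49 among 62 genes with means from 10 to under 100. Counting error alone, by the reads behind each value, would give an SD of about 0.0056 for Mir141, 0.10 for Mir200b and 0.36 for Mir429.

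No family gene passed the test between PWS and control lines. In the limma fit over the 4292 genes whose mean reached 5 normalized reads, 0 of the 3 genes were called at an adjusted p under 0.1, where 1.28% of all tested genes were called. Also, 0 of 3 had an unadjusted p under 0.05 in limma, against 5.96% of all tested genes, and 0 were called by edgeR, DESeq2 or limma-voom on the recovered reads. Similarly, 0 of 3 had groups that did not overlap, against 11.2% of all tested genes.

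The log2 fold change of Mir141, PWS minus control on the log2(normalized reads + 1) scale, was −0.14 ± 0.23 (SE, limma adjusted p = 0.939), with a 95% interval from −0.63 to 0.34. On a linear scale this interval ran from 0.647 to 1.27 times the control level. For Mir200b the log2 fold change was −0.28 ± 0.29 (SE, limma adjusted p = 0.894), with an interval from −0.89 to 0.33, or 0.538 to 1.25 times the control level. Mir429 had a log2 fold change of 0.41 ± 0.43 (SE, limma adjusted p = 0.898), and its interval from −0.51 to 1.33 allowed from 0.704 to 2.51 times the control level. The data thus left room for changes of these sizes in either direction, most of all for Mir429. Without control line 16 the log2 fold change became 0.0072 for Mir141 and −0.056 for Mir429, so that neither direction was held by the other lines. For Mir200b it was −0.06 without control line 5-9 and −0.49 without control line 2. For Mir141 the same omissions gave −0.03 and −0.41, and for Mir429 0.70 and 0.58.

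As 1 cluster, Mir200b and Mir429 summed to 331, 190 and 229 normalized reads in control lines 5-9, 2 and 16, and to 191, 210 and 219 in PWS lines 3, 19-1 and 19-4. The PWS lines again fell between line 2 and the other control lines. The log2 fold change of the sum was −0.24 ± 0.29 (SE, limma adjusted p = 0.908), with an interval from −0.84 to 0.37, and it was −0.015 without control line 5-9 and −0.42 without control line 2. For the Mir200c and Mir141 cluster the sum was Mir141 itself.

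The measured balance lay far on the side of Mir141 in every line. There were 265, 274 and 401 Mir141 reads per read of Mir200b and Mir429 in control lines 5-9, 2 and 16. The exact 95% counting intervals were 238 to 296, 233 to 325 and 358 to 451. In PWS lines 3, 19-1 and 19-4 there were 371, 308 and 311, with intervals of 333 to 416, 268 to 355 and 267 to 364. Line 16 had the highest ratio and lines 5-9 and 2 the lowest, with the PWS lines between them. The intervals cover counting error only and, with 1 library per line, do not include the spread between libraries of a line.

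Per base of hairpin, the Mir141 level was 266 to 404 times that of Mir200b and Mir429 together, with a geometric mean of 318. On the log2 scale this was 8.31 ± 0.24 (SD, n = 6), above 0 in 6 of 6 libraries. The two-sided exact sign-flip permutation p was 0.03125, the smallest that 6 libraries can give. With every library between 8.05 and 8.66 no other p was possible, so the test adds nothing to these values. Without division by hairpin length the mean was also 8.31. Mir200c and Mir200a add to neither side of this comparison. The log2 ratio of the clusters by reads was 8.27 ± 0.33 in control and 8.36 ± 0.15 in PWS lines (SD, n = 3 per group). The difference of 0.096 was smaller than the spread between control lines (two-sided exact permutation p = 0.6, also 0.6 after Benjamini-Hochberg adjustment over 2 comparisons, the smallest p for 3 lines against 3 being 0.1), and its sign turned without line 5-9 (−0.013).

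Within the Mir200b cluster, Mir429 was the minor member throughout. Per base of hairpin, the Mir200b level was 6.89 to 28.6 times that of Mir429. Mir429 made up 6.55, 9.66 and 3.03% of the Mir200b and Mir429 reads in control lines 5-9, 2 and 16. Its share was 7.17, 11.5 and 9.64% in PWS lines 3, 19-1 and 19-4. The exact (Clopper-Pearson) 95% counting interval was 1.39 to 5.67% in line 16, 4.15 to 9.75% in line 5-9 and 5.38 to 15.7% in line 2. It was 4.60 to 10.6% in line 3, 7.43 to 16.8% in line 19-1 and 5.61 to 15.2% in line 19-4. The mean share was 6.41 ± 3.31% in control and 9.43 ± 2.17% in PWS lines (SD, n = 3 per group). The difference was 3.02 percentage points (two-sided exact permutation p = 0.3, adjusted p = 0.6 over the same 2 comparisons), in a design of 3 lines against 3 that cannot give a p below 0.1. It was 1.33 points without line 16, 1.99 without line 19-1 and 4.65 without line 2.

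**Figure D3:**
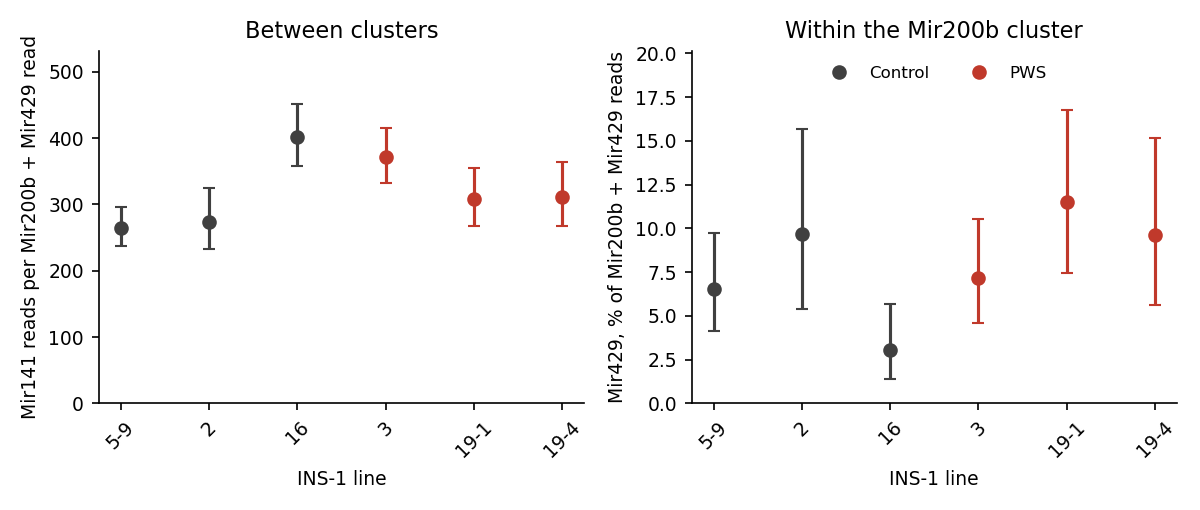
Left, Mir141 reads per read of Mir200b and Mir429 in each line; right, Mir429 as a percentage of Mir200b and Mir429 reads. Points are single libraries and bars exact 95% counting intervals; control line 16 is highest on the left (401) and lowest on the right (3.03%).

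No read was counted on the genes that lie opposite the unmeasured members. In RefSeq, Mir3548 covers all 89 bases of Mir200a on the opposite strand, and Mir3575 all 69 bases of Mir200c. Both genes had 0 reads in all 6 libraries, which allows up to 3 reads, or 1.78 to 3.96 normalized reads, in each. Whether the counting used strand is not given in the sources used here.

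Apart from Grcc10, the measured protein-coding genes next to the clusters gave few fragments. Beside Mir141 and Mir200c, the means over the 6 lines were 4.34 normalized reads for Emg1, 6.99 for Phb2, which encodes a mitochondrial prohibitin, and 0.736 for Ptpn6, which encodes a tyrosine phosphatase. Grcc10 had 2165 when reads shared between genes were counted for each gene, and 17.0 when such reads were left out. Mir141, Mir200b and Mir429 had the same recovered reads either way. Beside Mir429 and Mir200b, Tnfrsf18 was at 0, Ttll10 had 0.129 and C5h1orf159 had 0.872.

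The genes most like each cluster in their course over the 6 lines were sought among 601 genes whose mean reached 100 normalized reads. The sum of Mir200b and Mir429 was closest to Mir148b, a miRNA (Pearson r = 0.951), then to Mir181d, a further miRNA (0.947), and Snora36b, a box H/ACA snoRNA (0.934). Mir141 was closest to 3 copies of 5S rRNA (r = 0.947, 0.934 and 0.931), for which the assignment of reads among near-identical copies is uncertain. These are descriptions over 6 libraries, in which all genes of a library share its depth and size factor. They are also the highest of 601 correlations over 6 points, a selection that itself favours high values, and shared regulation was not tested.

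Known targets and partners of the family were hardly visible in small RNA libraries, where a protein-coding gene appears only as fragments. Of 13 listed genes 12 were measured, and 2 had enough reads to be tested. Neither passed the limma test, with log2 fold changes of −0.71 for Sec23a, a COPII coat gene (adjusted p = 0.876), and 0.32 for Xiap (adjusted p = 0.915), and a list median of −0.20 against 0.0048 over all tested genes. Zeb2 was at 0 in every library. Over all libraries, Zeb1 had 6 reads and Dnajc3 13. No statement on the level of these mRNAs can be drawn at this depth.

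Genes of the epithelial and mesenchymal state were measured in 13 of 13 cases, of which 3 were tested and 0 called in either direction by limma, with a median log2 fold change of 0.22. All 3 are epithelial genes. Cdh1, which encodes E-cadherin, had a log2 fold change of 0.49 (limma adjusted p = 0.887). Esrp1, an epithelial splicing factor gene, had 0.22, and Krt8, a keratin gene with a mean of 41.3 normalized reads, −0.17. Vim, the mesenchymal intermediate filament gene, was at 0 in every library. The other mesenchymal genes of the list had reads over all libraries, namely Twist1 15, Fn1 13, Cdh2 10, Snai2 6 and Snai1 1. Among the untested epithelial genes, Epcam had 32 reads, Krt18 30, Ovol2 19 and Grhl2 2. No statement on the state of the cells can be drawn from so few fragments.

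Other miRNAs typical of epithelia and islets set the scale for Mir141. Of 13 listed symbols, 10 were measured and 9 tested, of which 0 were called in either direction by limma. Their median log2 fold change was −0.07, and they ranged from −0.49 for Mir96, a sensory and neuroendocrine miRNA (limma adjusted p = 0.835), to 0.49 for Mir192, an epithelial miRNA of gut, liver and kidney (adjusted p = 0.851). The most abundant were Mir7a2, Mir7a1, Mir375 and Mir183, with means of 946577, 944223, 705935 and 377772 normalized reads, and Mir192 had 134418. Mir141 had a mean of 72506, and the log2 fold changes of all 3 family genes lay within the range of this list. The 3 Mir34 genes, set beside the family because both are tied to β-cell apoptosis, were all tested and gave log2 fold changes of 0.33 for Mir34a, −0.24 for Mir34b and −0.067 for Mir34c, with 0 called.

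**Figure D4:**
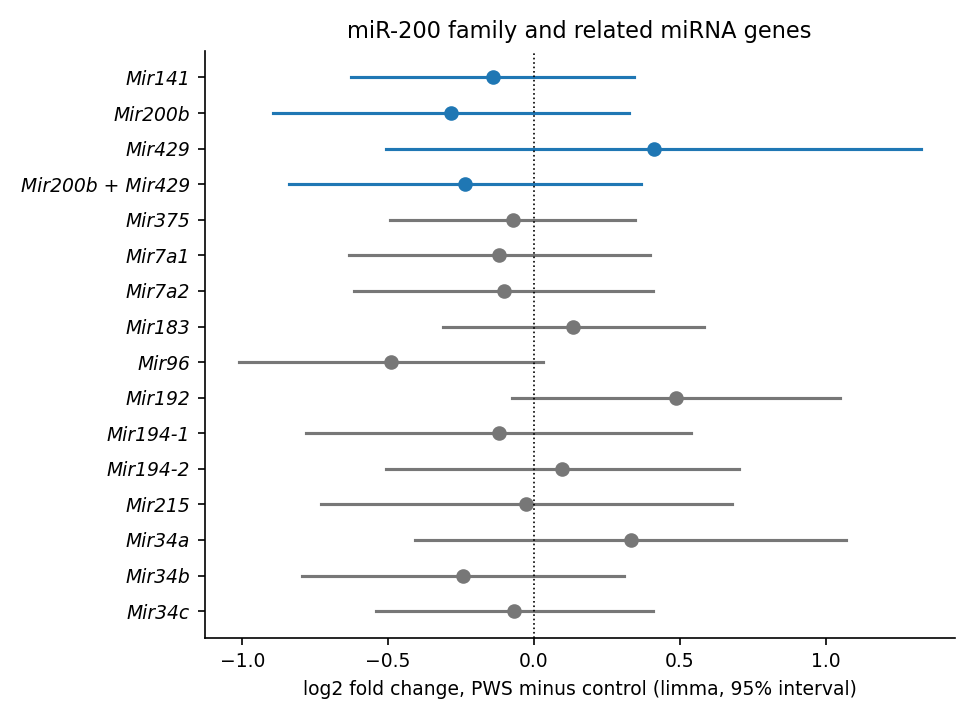
Log2 fold change (PWS minus control, limma) of the family genes, their cluster sum and related miRNA genes; points are estimates and bars 95% intervals. Every interval includes 0, and that of Mir429, from −0.51 to 1.33, is the widest shown.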

How the data were processed

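Small RNA libraries of 6 INS-1 lines (3 control, 3 PWS) were analysed. Per the study's methods and the submitters' processing notes, the authors collapsed duplicates by molecular identifiers (UMI-tools 1.0.0), trimmed adapters (cutadapt 1.18), aligned reads with Bowtie2 2.3.4.2 to Rnor_6.0 and counted them per gene with HTSeq 0.11.2. The deposited signal is normalized reads, gene counts that DESeq2 scaled by 1 size factor per library. One deposited table counts a read shared between genes for each gene, which is the table used here, and the other leaves it out. The deposited log2 fold changes and p-values are the authors' own comparison and were not used.

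Whole reads were recovered from the steps of the values (100% of values above 0 whole within 0.001). Differences were tested with limma-trend (limma 3.58.1, R 4.3.3) on log2(normalized reads + 1), which understates changes of low genes, over genes whose mean reached 5, with genotype as the sole term, Benjamini-Hochberg adjustment and a threshold of 0.1. Called genes numbered 55 of 4292. edgeR 4.0.16, DESeq2 1.42.0 and limma-voom were run on the recovered reads, calling 59, 58 and 48 genes. Ratios and shares were compared by exact permutation tests (scipy 1.17.1). Depth was 7373691 to 16480475 reads. Intervals and limits of a count of 0 cover counting error only. The limma-trend test was checked on simulated data, over genes more abundant than Mir429. The exact tests were run only on made-up values, and edgeR, DESeq2 and limma-voom were not checked.

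The members and gene lists were chosen with earlier results of these data known. Genes named are the family, the 3 genes most like each cluster by Pearson r, the 3 neighbours on each side in RefSeq order that were measured, and up to 4 genes of each list by mean. Further list genes were named after their values were seen, for their place in the list's range, their known role or to complete a list. Other pseudocounts, filters, scalings, tools, the second table, the replicate block, lines 19-1 and 19-4 averaged, and each line left out were tried. As Mir200a and Mir200c were not analysed, sums by seed heptamer equalled the cluster sums, and 1 share was tested in place of 5.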

Additional observations from a re-analysis of the deposited data

How the results depend on the processing

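The alternatives made 0 family genes called in 22 of 22 settings, with limma or other adjusted p-values of 0.819 to 1.00. Mir200b kept its direction in 22 of 22 (−0.49 without line 2 to −0.063 without line 5-9), as did its sum with Mir429 (−0.42 to −0.015, without the same lines). Mir141 kept it in 21 of 22 and Mir429 in 20 of 21, the filter at a mean of 20 leaving Mir429 out. The filters, a robust limma fit, the 0.05 threshold and the replicate block cannot change an estimate, so they had to keep its direction. Likewise, the 0.05 threshold could not call a gene that missed 0.1. Without control line 16 the log2 fold change was 0.0072 for Mir141 and −0.056 for Mir429. With each line left out in turn, Mir141 ranged from −0.41 to 0.0072 and Mir429 from −0.056 to 0.70. The PWS minus control difference of the log2 cluster ratio ranged from −0.013 (without line 5-9) to 0.29, and the Mir429 share difference from 1.33 (without line 16) to 4.65 (without line 2) percentage points. The log2 cluster ratio per base was 8.25 to 8.37 with a line left out and 8.32 with lines 19-1 and 19-4 averaged, where the smallest p of the exact sign-flip test on 5 values is 0.0625.

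With the replicate number as a block, limma called 56 genes against 55. In this balanced design the block cannot move the family values, which stayed at −0.28 (Mir200b), 0.41 (Mir429), −0.14 (Mir141) and −0.24 (the sum of Mir200b and Mir429). Their limma adjusted p-values were 0.872, 0.872, 0.927 and 0.891. Same-numbered lines had correlations of their deviations of 0.414, 0.218 and −0.057 over 1087 genes. The main fit left the number out, and whether same-numbered libraries shared handling was not tested. Scaling to miRNA reads, chosen after seeing the data, moved the median of all tested genes to 0.096, Mir141 to −0.047, Mir200b to −0.19, Mir429 to 0.50 and the sum of Mir200b and Mir429 to −0.14. Mir429 rested on 9 to 23 reads per library, and its SD over the lines was 0.62 against 0.36 from counting alone. Mir141 rested on 39720 to 119233 reads, with an SD of 0.30 against 0.0056.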

Other observations

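The balance within other miRNA clusters was computed after the family's values were seen. The ratio of Mir200b to Mir429 reads ran from 7.70 in line 19-1 to 32.0 in line 16, with a median of 11.2. For Mir183 to Mir96 the ratio of reads ran from 15.6 in line 5-9 to 51.8 in line 19-4 (median 19.8), for Mir192 to Mir194-2 from 9.70 to 15.6 (median 11.1), and for Mir34c to Mir34b from 6.26 to 9.63 (median 9.03). The highest ratio was in line 16 for Mir200b to Mir429, line 19-4 for both Mir183 to Mir96 and Mir192 to Mir194-2, and line 3 for Mir34c to Mir34b. The pair with Mir429 rests on 9 to 23 reads per library for its rarer gene.

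Mir141 had 119233 recovered reads in both line 16 and line 3, whose libraries held 13872493 and 16480475 reads. Among 81 genes with a mean of at least 10000 reads, this was the only exact match over the 15 pairs of libraries.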
